A study of Mus musculus with 2 samples.

Results

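Solute carriers are the large superfamily of membrane proteins that move sugars, amino acids, ions, metals, vitamins and other small molecules across cell and organelle membranes without burning ATP directly. The members were genes read by a probe set that names a single gene and whose current symbol begins with Slc, a family number, the letter a and a member number, leaving out the mitochondrial Slc25 family, the vesicular transporters Slc17a6 and Slc32a1, and the muscle and fat glucose transporter Slc2a4. There were 209 such genes in 46 families, of 12393 genes named from such probe sets, and they were read by 321 probe sets. Of the 209, 3 match the naming pattern but encode adaptor proteins and not transporters (Slc9a3r1, Slc9a3r2 and Slc4a1ap), and the other 206 were placed in 13 groups by substrate.

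The arrays compare teratomas, mixed tumours that pluripotent stem cells form after transplantation, grown under the skin of male C57BL/6 (B6) mice and removed at week 6. For one array, RNA of 2 tumours raised from B6 embryonic stem cells was pooled (the B6 ES tumours). For the other, RNA of 2 tumours raised from EiPS cells was pooled (the EiPS tumours); these cells, named iPS in the source label and given the same strain, are induced pluripotent cells, and the series' design text describes their tumours as regressing. No further treatment or genetic change is given in the labels for either group, each group rests on 1 stem cell line, and tumour RNA also holds RNA of host cells. With 1 array per group no difference below has a replicate check or a test, so values describe these 2 RNA samples, and the number of arrays limits the precision.

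A family number in a solute carrier's name marks shared ancestry and often, but not always, a shared kind of cargo. Facilitative carriers such as the Slc2 glucose transporters let a solute run down its own gradient, while coupled carriers such as the Slc5, Slc6 and Slc12 families use the sodium, proton or chloride gradients that ion pumps maintain. In a tumour of mixed tissue, neurons, muscle, gut epithelium, liver-like cells and blood cells each bring carriers of their own, on top of a set that nearly all cells use for fuel, building blocks and metals.

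Values are MAS5 signals, the intensity of a probe set on a linear scale. The floor was set at 25.8. It is the 90th percentile over 71 probe sets that read odorant, pheromone and taste receptors, genes of sensory cells. Where a gene lay under it on 1 array, the floor took the place of that signal, and the fold is then a lower limit that the text gives as "at least". No comparison was made of genes under it on both arrays. Of the 209 members, 151 were above the floor on both arrays, 9 on the B6 ES array only, 9 on the EiPS array only and 40 on neither (19.1%, against 11.5% of all genes). The 169 measured members include those that passed only through the array on which they were brighter. Differences are given as log2 of EiPS over B6 ES signal. Across the series, the arrays had median probe set signals of 179 (B6 ES) and 196 (EiPS) with equal trimmed means of 500.2, and markers of neurons (10 of 10), skeletal muscle (10 of 10) and gut epithelium (7 of 8 that could be read) were above the floor on at least 1 array, tissues that derive from different germ layers. In bulk RNA, fewer cells of a type and less RNA per cell cannot be told apart.

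Promoter sequence was read for 12 of the 15 members that differed at least 2-fold, from RefSeq windows on build GRCm38.p6 (entries were matched for 162 of the 209 members). Those printed belong to the member with the largest difference upward (Slc5a1), the one with the largest downward (Slc6a4) and Slc12a5, a neuronal gene with more than 1 annotated start. Each run holds the 250 bases before the start, 5′ to 3′ on the plus strand, which holds all 3 genes, at chr5:33103969-33104218, chr11:76998347-76998596, chr2:164960596-164960845 and chr2:164967738-164967987 in the order given. Capitals mark GGGCGG, the core of the GC box, on either strand.
Slc5a1: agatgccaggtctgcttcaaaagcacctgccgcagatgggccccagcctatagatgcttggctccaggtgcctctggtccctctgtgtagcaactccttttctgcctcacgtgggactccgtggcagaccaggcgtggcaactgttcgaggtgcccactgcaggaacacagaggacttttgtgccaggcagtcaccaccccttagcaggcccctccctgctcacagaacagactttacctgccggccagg
Slc6a4: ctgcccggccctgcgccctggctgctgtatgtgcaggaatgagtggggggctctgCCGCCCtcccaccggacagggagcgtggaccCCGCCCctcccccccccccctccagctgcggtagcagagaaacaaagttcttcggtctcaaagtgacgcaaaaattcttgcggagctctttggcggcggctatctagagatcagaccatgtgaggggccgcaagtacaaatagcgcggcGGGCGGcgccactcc
Slc12a5, upstream start: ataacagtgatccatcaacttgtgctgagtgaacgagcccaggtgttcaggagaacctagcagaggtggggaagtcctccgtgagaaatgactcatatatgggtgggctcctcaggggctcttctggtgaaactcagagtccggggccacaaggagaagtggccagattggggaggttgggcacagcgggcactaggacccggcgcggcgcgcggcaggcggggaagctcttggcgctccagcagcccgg
Slc12a5, downstream start: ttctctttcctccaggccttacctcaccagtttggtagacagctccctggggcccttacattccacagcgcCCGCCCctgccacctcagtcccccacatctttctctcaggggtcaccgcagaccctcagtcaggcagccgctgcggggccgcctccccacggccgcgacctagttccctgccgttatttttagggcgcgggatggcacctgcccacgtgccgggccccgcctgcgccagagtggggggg

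Among these, the GC box core was found 3 times before Slc6a4, once before the downstream start of Slc12a5 and not in the other windows, against 32.7% of all 32851 promoter windows that hold it at least 1 time. TATAAA and GTTAAT, the latter a HNF1 half-site, were in none of the 4 windows, and 12.4% and 6.43% of all windows held them on either strand. The windows differ in CpG content, with 6 CpG before Slc5a1, equal to the median of all windows (6), 18 before Slc6a4, and 13 and 16 before the starts of Slc12a5. These are matches of letters and say nothing of which factors act there.

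Most members had similar signals on the arrays. The median log2 difference over the 169 measured members was 0.07, equal to that over all 10962 genes measured (0.07), and 126 members (74.6%) lay within 1.5-fold, against 75.5% of all genes. By 2-fold or more, 6 members were higher in the EiPS tumours (3.55%), against 5.79% of all genes measured. Lower by that much were 9 members (5.33%), against 3.05% of all genes, so the members' total of 8.88% is close to the background of 8.84%, with more lower than higher among members and more higher than lower among all genes. The 3 genes that the rule leaves out by name were all lower in the EiPS tumours, Slc17a6 by 4.48-fold, Slc2a4 by 3.77-fold and Slc32a1 by 3.25-fold; with them, 12 of 172 genes would be at least 2-fold lower. Above the floor on both arrays, 6 members were higher (3.97%) and 7 lower (4.64%), against 4.90% and 2.96% of all such genes. With probe sets averaged, 6 members were higher (3.73%) and 7 lower (4.35%), against 6.52% and 3.16% of all genes. The excess of lower over higher members grew after quantile normalization (5 higher and 12 lower). Of all genes, 4.44% were then higher and 3.93% lower, against 3.03% and 7.27% of members. With no floor the member counts turned (19 higher and 17 lower). Members were then 9.09% higher and 8.13% lower, against 10.1% and 5.81% of all genes.

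**Figure D1:**
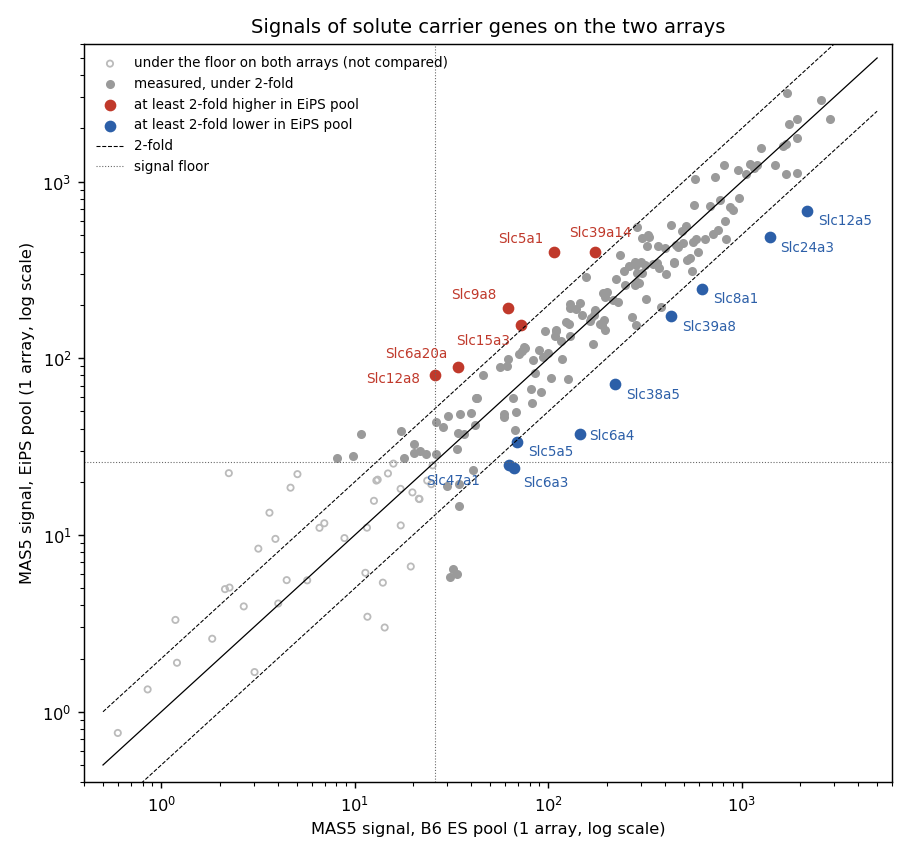
MAS5 signal of each of the 209 members in the B6 ES tumours (horizontal) and the EiPS tumours (vertical), both on log scales, with 1 array each. The 6 members at least 2-fold higher in the EiPS tumours (red) had B6 ES signals from 25.9 to 175, while the 9 lower ones (blue) reach up to 2181; open circles are the 40 members under the floor on both arrays, dotted lines the floor of 25.8 and dashed lines 2-fold.

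Of the 6 higher members, 2 had a geometric mean signal under 100 and 4 lay between 100 and 500, and of the 9 lower ones 4 and 3 did. No member with a geometric mean signal of 500 or above was at least 2-fold higher, of 37 measured, while 2 were lower (Slc12a5 and Slc24a3). At such signals 2.23% of all genes were higher and 3.07% lower. Among the 56 members under 100, 2 were higher (3.57%) against 12.9% of all genes in that range, and 4 were lower against 3.45%. Measurement noise was gauged from probe sets of the same gene, whose log2 differences had an SD of 0.40 over 3805 genes and 0.35 over the 48 members with 2 or more usable probe sets. The SD was 0.54 at signals under 100 and 0.19 above 1000, and it leaves out variation between tumours, arrays and labelling.

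**Figure D2:**
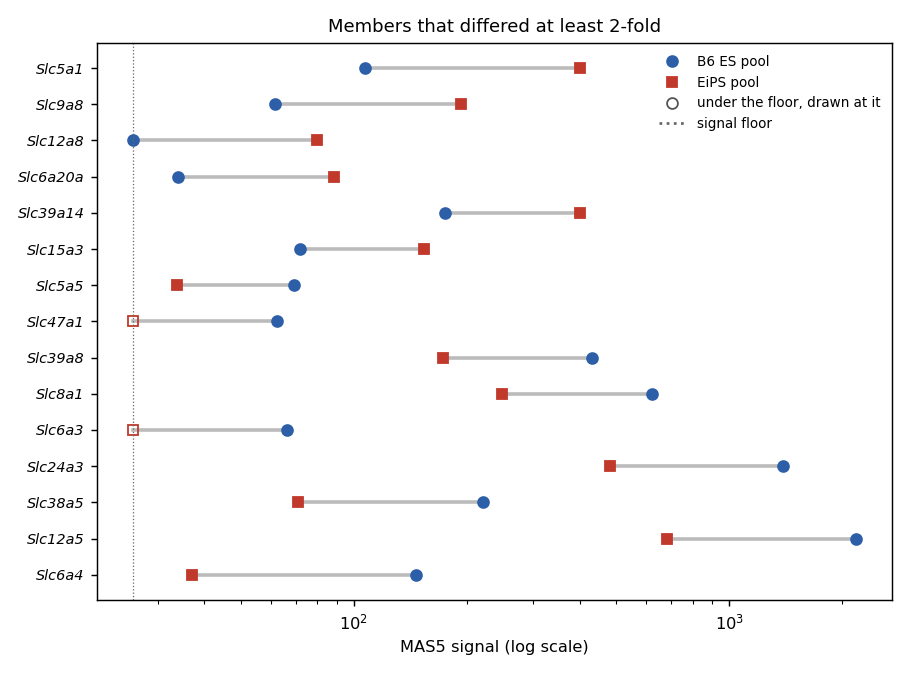
MAS5 signals (log scale) of the 15 members that differed at least 2-fold, with a circle for the B6 ES tumours, a square for the EiPS tumours and the dotted line at the floor of 25.8. The distances run from 3.74-fold higher in the EiPS tumours (Slc5a1, top) to 3.96-fold lower (Slc6a4, bottom), and the open squares of Slc6a3 and Slc47a1 lie at the floor, so that their distances are bounds.

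Among carriers of neurotransmitters, those of serotonin and dopamine were at least 2-fold lower in the EiPS tumours, and the rest lay within 2-fold or could not be compared. Of 14 such genes, 11 were measured, 7 lower and 4 higher by any amount, while 4798 of all 10962 genes were lower. At least 2-fold lower were 2 (18.2%), against 3.05% of all genes, and none was that much higher. The group's median was -0.35 (all genes 0.07), between -0.49 and -0.16 under the alternative settings. Slc6a4, which takes serotonin back into nerve endings, gave 147 in the B6 ES tumours and 37.1 in the EiPS tumours, 3.96-fold lower. The dopamine transporter Slc6a3 had signals of 66.5 and 24.1, the latter under the floor, at least 2.57-fold lower. Slc6a2, the third monoamine carrier of the family, which returns noradrenaline, gave 36.6 and 37.5, a difference of 0.03. The vesicular amine loader Slc18a1 had 33.8 and 6.02 (at least 1.31-fold lower), and Slc18a3 and Slc5a7, which load acetylcholine and take up its precursor choline, were under the floor on both arrays. Slc6a4 and Slc6a3 both had low signals, and each was read by 1 probe set. Slc6a4 was within 2-fold with a floor of 100 (-0.55). Slc6a3 was within 2-fold with the floor at the 98th percentile (-0.43) and with log2(signal + 64) (-0.57), and it could not be compared with a floor of 100.

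Glutamate uptake carriers differed in both directions, none by 2-fold. Slc1a3, the glial glutamate transporter GLAST, had the group's highest signals, 2556 and 2901 (0.18), but its other probe sets differed by -0.74 and -0.21. Slc1a2, the other main glial carrier, had 83.7 and 97.5. Slc1a1, which neurons and epithelia use, was at 538 and 368 (-0.55), with all 3 probe sets lower, down to -1.06. Slc1a6, of cerebellar neurons, had 126 and 76.6 (-0.72). The glycine carrier Slc6a9 differed by -0.14 (498 and 452), and the GABA and taurine carrier Slc6a13, at 74.9 and 116, by 0.63, the highest of the group. Markers of neurons lay in the same direction as Slc6a4 and Slc6a3: 9 of 10 were lower in the EiPS tumours, 4 of them at least 2-fold (Nefl, Stmn2, Gap43 and Map2), with summed signals of 23935 and 11939, while Dcx was 1.97-fold higher. Of 8 astrocyte markers none reached 2-fold (summed signals 40312 and 37055). The part of cell numbers in these differences was not tested.

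Chloride carriers differed between members of 1 family. Slc12a5, the potassium-chloride cotransporter KCC2 that lowers chloride in mature neurons, had signals of 2181 and 684, 3.19-fold lower in the EiPS tumours. Its second probe set was under the floor on both arrays, so the gene rests on 1 probe set, and the mean over both was -0.86, within 2-fold. Slc12a2, the sodium-potassium-chloride cotransporter NKCC1 that brings chloride into young neurons and secreting epithelia, had 1636 and 1584, a difference of -0.05, and its 3 probe sets ran from -0.05 to 0.40. The log2 difference of Slc12a5 was thus 1.63 below that of Slc12a2, or 3.09-fold. Slc12a7 (KCC4) was at 286 and 553 (0.95, just under 2-fold) with a second probe set at 0.55, while Slc12a4 (KCC1) and Slc12a9 differed by -0.01 and -0.08. Slc12a8, a distant relative in the family, was 3.09-fold higher, but its B6 ES signal of 25.9 stood at the floor and its EiPS signal was 80.0.

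The other carriers of bicarbonate, protons and inorganic anions differed in both directions. The whole group, with Slc12, held 18 measured genes of 25, 9 higher and 9 lower by any amount. By 2-fold or more, 2 differed in each direction (11.1%), against 5.79% of all genes higher and 3.05% lower. The group's median was -0.00. Its sign changed with no floor (0.08). Slc9a8, a sodium-proton exchanger of gut and kidney epithelium, was 3.13-fold higher (61.5 and 193) by its brightest probe set, whereas its other probe set, at 25.2 and 3.96, was under the floor on both arrays and the mean over both was -0.51. Slc5a5, the iodide pump of the thyroid that groups here by its cargo, was 2.05-fold lower at low signals of 69.1 and 33.7. The sodium bicarbonate cotransporters Slc4a4 (905 and 691) and Slc4a10 (752 and 534) differed by -0.39 and -0.50, and the anion exchangers Slc4a3 and Slc4a2 by -0.30 and 0.43. The red cell anion exchanger Slc4a1 passed the floor only in the EiPS tumours (10.7 and 37.1). Slc12a1 and Slc12a3, carriers of the kidney tubule, and Slc26a4 and Slc26a5, which serve the inner ear, were under the floor on both arrays.

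Calcium and magnesium carriers had the lowest median of the 13 groups, -0.67, over only 6 measured genes of 8. Of the 6, 5 were lower in the EiPS tumours, as were 4798 of all 10962 genes. At least 2-fold lower were 2 of them (33.3%), against 3.05% of all genes. The group's median lay between -0.89 and -0.43 under the alternatives. Slc24a3, a potassium-dependent sodium-calcium exchanger of brain and smooth muscle, had 1391 and 482, 2.88-fold lower, by its only probe set. Slc8a1, the sodium-calcium exchanger NCX1 that expels calcium from heart muscle and other excitable cells, had 623 and 248, 2.51-fold lower. A second probe set of Slc8a1 differed by -0.36 and the third passed the floor only in the EiPS tumours (3.84 and 26.7), so that the mean over all 3 was 0.37, above 0. Slc8a3, the exchanger of skeletal muscle and brain, was at 34.4 and 14.5, at least 1.33-fold lower. The magnesium carriers Slc41a2 (286 and 154) and Slc41a1 (814 and 599) differed by -0.89 and -0.44, and Slc41a3 by 0.02; Slc41a2 passed 2-fold with equal medians (-1.01) and after quantile normalization. Markers of skeletal muscle were lower too, 10 of 10 and 7 of them at least 2-fold, with summed signals of 75950 and 32236, as were those of neurons given above. Their part in the differences of the calcium exchangers was not tested.

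**Figure D3:**
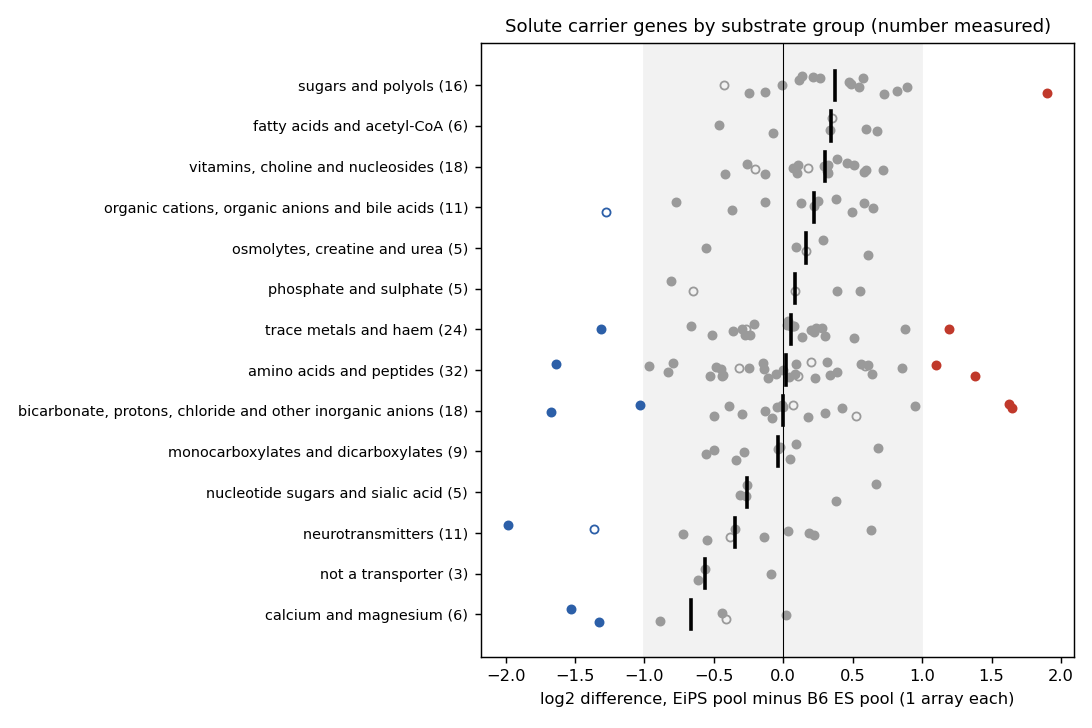
Log2 difference, EiPS tumours minus B6 ES tumours, for each of the 169 measured members by substrate group, with the number measured in parentheses, black bars for group medians, open circles for bounds and a grey band inside 2-fold. Medians run from -0.67 (calcium and magnesium) to 0.37 (sugars and polyols), and every median except those of calcium and magnesium and of the adaptors lies between -0.35 and 0.37.

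Sugar carriers had a median of 0.37. By any amount, 12 of the 16 measured were higher in the EiPS tumours, as were 6164 of all 10962 genes, and 1 (6.25%) was at least 2-fold higher, close to the background of 5.79%. The median stayed above 0 under all 10 alternatives (0.13 to 0.49), although fatty acid or phosphate carriers had a higher one under 7 of them. Slc5a1, the sodium-glucose cotransporter SGLT1 through which the gut absorbs glucose, had signals of 107 and 401, 3.74-fold higher. Both of its probe sets were higher by more than 2-fold, the other at 1.38 on the log2 scale, and it passed 2-fold under all 10 alternatives. Slc5a2, the kidney's SGLT2, and the related Slc5a4a and Slc5a4b were under the floor on both arrays. Slc5a9, a sodium-coupled mannose carrier, gave 42.7 and 60.0 (0.49). Markers of gut epithelium were divided: of 7 measured, 4 were at least 2-fold higher (Krt20, Cdh17, Lct and Vil1), 1 was at least 2-fold lower (Fabp2), and their summed signals were 2810 and 2504. Cdx1 was under the floor on both arrays, and the part of gut cells in the signal of Slc5a1 was not tested.

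Facilitative glucose carriers differed less than Slc5a1. Slc2a1 (GLUT1), the main carrier of most growing cells and of the blood-brain barrier, had 1701 and 3151, 1.85-fold higher, and its 3 probe sets lay between 0.68 and 0.89. Slc2a3 (GLUT3), the neuronal carrier, had 1750 and 2106, 1.20-fold higher; a second usable probe set was at 0.12, and with the remaining probe sets, both under the floor, averaged in, the difference turned to -0.73. By the brightest probe sets the log2 difference of Slc2a1 was larger by 0.62. Slc2a2 (GLUT2), of liver and pancreas, stood near the floor at 35.1 and 48.7, as did the fructose carrier Slc2a5 at 34.3 and 37.6. Slc2a9, which moves urate, passed the floor only in the B6 ES tumours (34.7 and 19.5). In the Slc37 family of the endoplasmic reticulum, the glucose-6-phosphate carrier Slc37a4, needed for glucose release in liver and kidney, had 306 and 305, and Slc37a1 45.8 and 80.8 (0.82). Slc50a1, a sugar exporter, was at 332 and 483 (0.54).

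Trace metal carriers were all measured, 24 of 24, with a median of 0.05. There were 15 higher and 9 lower by any amount. By 2-fold or more, 1 differed in each direction (4.17%), against 5.79% of all genes higher and 3.05% lower. The median turned to -0.07 with equal array medians. The 2 that passed 2-fold are close relatives with the same cargo of zinc, iron and manganese. Slc39a14 (ZIP14), prominent in liver, had 175 and 401, 2.29-fold higher, with a second probe set at 0.54 and a mean over both of 0.87. Slc39a8 (ZIP8) had 430 and 173, 2.49-fold lower, with a second probe set under the floor on both arrays and a mean over both of -0.93. Averaged probe sets thus put both within 2-fold, still in opposite directions. Their log2 differences were 2.51 apart, or 5.70-fold. Of 8 liver markers, 7 were measured and all 7 were higher, 6 at least 2-fold. Ahsg, Serpina1b and Fgb among them passed the floor only in the EiPS tumours, so they could only count as higher. Tat was under the floor on both arrays (17.1 and 4.57). Summed signals were 10531 and 18267, of which Ttr, 1.52-fold higher, gave 8629 and 13102. The part of liver cells in the signal of Slc39a14 was not tested.

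The remaining metal carriers stayed within 2-fold. Slc39a6 (ZIP6) had 1263 and 1554 and Slc39a7 (ZIP7), which frees zinc from the endoplasmic reticulum, 1098 and 1260. The Golgi zinc loaders Slc30a5, Slc30a6 and Slc30a7 differed by 0.08, 0.22 and 0.23, and Slc30a9 by 0.05 (1191 and 1235). Slc30a1, the zinc exporter of the cell surface, was at 171 and 120 (-0.51), and Slc30a3, which fills synaptic vesicles with zinc, at 271 and 171 (-0.67). For iron, the exporter ferroportin (Slc40a1) had 867 and 716 (-0.28; second probe set 0.04) and the importer Slc11a2 (DMT1) 129 and 134 (0.05; other probe sets 0.49 and 0.51). Slc11a1, of macrophage phagosomes, had 165 and 169, and the haem carrier Slc48a1 768 and 783. The copper carriers Slc31a1 and Slc31a2 differed by 0.07 and 0.88.

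**Figure D4:**
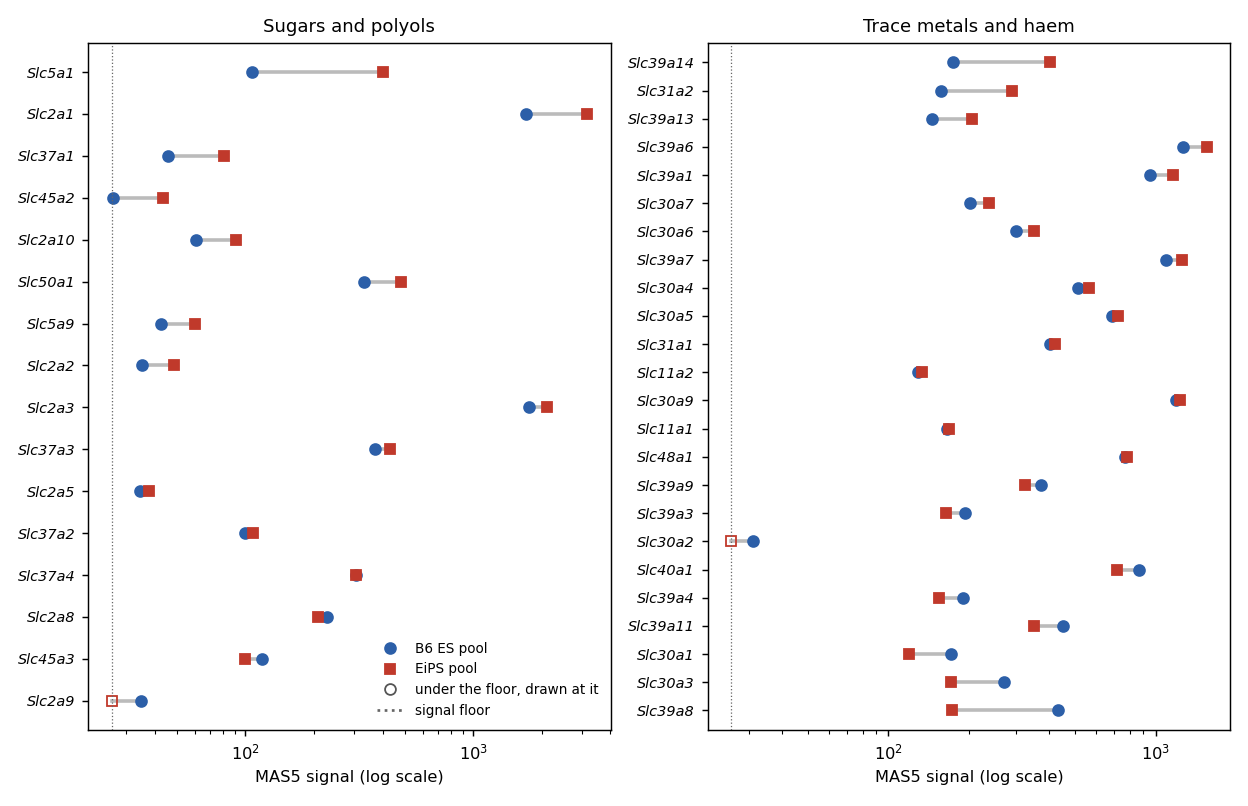
MAS5 signals (log scale) of the 16 measured sugar and polyol carriers and the 24 trace metal and haem carriers, with a circle for the B6 ES tumours, a square for the EiPS tumours, open symbols drawn at the floor of 25.8, and genes in order of their difference. Slc5a1 (107 and 401) stands apart among sugar carriers, and Slc39a14 (175 and 401) and Slc39a8 (430 and 173) at opposite ends of the metal carriers.

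Amino acid and peptide carriers had a median of 0.02, whose sign turned under 8 of the 10 alternatives. Of 37 genes 32 were measured, 16 higher and 16 lower, with 2 past 2-fold upward (6.25%) and 1 downward (3.1%). These shares are close to the 5.79% and 3.05% of all genes. Slc38a5, a glutamine carrier of system N, had 222 and 71.2, 3.11-fold lower by its only probe set. Slc38a3, the other system N carrier, was at 520.5 and 361 (-0.53), while the system A carriers Slc38a2 (1932 and 2269) and Slc38a1 (431 and 565) differed by 0.23 and 0.39. Slc6a20a, an imino acid carrier of gut and kidney, was 2.61-fold higher from a B6 ES signal of 34.1 (88.7 in the EiPS tumours). Slc15a3, a peptide and histidine carrier of lysosomes in macrophages, had 71.9 and 154, 2.14-fold higher. It passed 2-fold under only 5 of the 10 alternatives. After each rescaling of the arrays it was just under 2-fold, and it fell to 0.62 with a floor of 100 and 0.68 with log2(signal + 64). Of 8 macrophage markers 4 were higher and 4 lower, only Cd68 by 2-fold, with summed signals of 11984 and 17349, and their part was not tested.

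Slc3a2 (4F2hc), the heavy chain that brings several light chains of the Slc7 family to the membrane, had 1700 and 1638 (-0.05). Slc7a5 (LAT1), its light chain for large neutral amino acids such as leucine, had 1936 and 1117, 1.73-fold lower, and Slc7a8 (LAT2) 196 and 144 (-0.44). Slc7a6 and Slc7a7, the partners that exchange basic for neutral amino acids, were at 0.33 and 0.56, and Slc7a10, of astrocytes, at -0.25. Slc7a11 (xCT), the cystine carrier, had 24.8 and 19.4, under the floor on both arrays. Among single-chain carriers of basic amino acids, Slc7a3 had 382 and 195, 1.96-fold lower, and passed 2-fold after quantile normalization (-1.06), equal medians (-1.10) and loess scaling (-1.03). Slc7a1 was under the floor on both arrays (17.3 and 11.3). The neutral amino acid carriers Slc1a4 (ASCT1) and Slc1a5 (ASCT2) differed by -0.49 and 0.09, and the neuronal carriers Slc6a15 and Slc6a17 by -0.83 and 0.86.

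Carriers of other fuels and building blocks stayed within 2-fold. Slc16a1 (MCT1), which moves lactate and pyruvate, had 2850.4 and 2249 (-0.34), while Slc16a3 (MCT4), the lactate exporter of glycolytic cells, had 56.0 and 89.8 (0.68), and the 9 measured carboxylate carriers had a median of -0.04 (0.01 with a floor of 100). Slc16a4 was the lowest of them (82.0 and 55.8, -0.55), and Slc16a6 and Slc16a11 differed by 0.05 and 0.10. Bsg (basigin), the chaperone that takes MCT1 and MCT4 to the membrane, was at 0.09. Fatty acid carriers had a median of 0.34 over 6 genes, from Slc27a4, of gut and skin, at -0.46 (648 and 471) to Slc27a3 at 0.67. Slc27a1, of muscle and fat, had 246 and 311 (0.34), and Slc33a1, which moves acetyl-CoA into the endoplasmic reticulum, 458 and 435 (-0.07). Among creatine and osmolyte carriers, the creatine carrier Slc6a8 (813 and 1238) differed by 0.61 and the taurine carrier Slc6a6 (591 and 402) by -0.56, in opposite directions, though averaged over 3 probe sets, 2 of them under the floor on both arrays, Slc6a6 was higher by at least 0.06. The urea carrier Slc14a1, of red cells and kidney, had 316 and 337 (0.09). The widely used phosphate importers also parted: Slc20a1 (PiT1) had 727 and 1065 (0.55) and Slc20a2 (PiT2) 827 and 473 (-0.81, with both probe sets lower), 2.56-fold apart. A second probe set of Slc20a1 passed the floor only in the EiPS tumours (13.2 and 56.4), and the mean over both was 1.32. Slc34a2, the phosphate carrier of lung surface cells, was at 109 and 142 (0.38).

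No carrier of vitamins, choline or nucleosides reached 2-fold by its brightest probe set, and Slc29a3, a nucleoside carrier of lysosomes, did so with probe sets averaged (-1.17, against 0.32). Of the 18 measured, 14 were higher by any amount, as were 6164 of all 10962 genes, with a median of 0.30 (0.14 to 0.32 under the alternatives). The reduced folate carrier Slc19a1 had 234 and 384 (0.72, with a second probe set at 0.59), the thiamine carrier Slc19a2 280.0 and 351 (0.33), and the gut folate carrier Slc46a1 110 and 144 (0.39). The equilibrative nucleoside carriers Slc29a1 and Slc29a2 differed by 0.46 and -0.42. Slc44a1, a choline carrier, was at 1044 and 1097 (0.07), and Slc44a2 at 1476 and 1232 (-0.26), though its 3 probe sets ranged up to 1.15. The vitamin C carrier Slc23a2 differed by -0.13.

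Organic ion and bile acid carriers were the least detected group, with 12 of 23 genes under the floor on both arrays, among them the bile acid importers of liver and gut, Slc10a1 and Slc10a2, and the kidney's Slc22a2, Slc22a7 and Slc22a8. Of 11 measured, 7 were higher and 4 lower, with a median of 0.22. Slc47a1 (MATE1), which expels organic cations in kidney and liver, had 62.5 and 24.9, at least 2.42-fold lower. Slc22a17, a receptor-like member, had 1935 and 1769 (-0.13), and the carnitine carrier Slc22a5 282 and 335 (0.25). Slc22a23 had 447 and 346 (-0.37). The group's differences ran up to 0.64 (Slc22a21, at 30.2 and 47.2). Of 8 kidney tubule markers, 3 were under the floor on both arrays (Umod, Aqp2 and Cdh16). Of the 5 measured, 3 were higher and 2 lower. Summed signals were 715 and 1219, of which Aqp1 gave 458 and 908.

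Nucleotide sugar carriers of the Golgi, all 5 measured, had a median of -0.26, which turned to 0.21 when probe sets were averaged and to 0.06 with a floor of 100. The CMP-sialic acid carrier Slc35a1 had 565 and 735 (0.38). The UDP-galactose carrier Slc35a2 had 303 and 481 (0.67), but its 4 probe sets ran from -0.29 to 0.67. Slc35a5 and Slc35a4 were at -0.26 and -0.31. Taken with other carriers that sit in membranes inside the cell, a list put together after the values were seen, 27 of 31 measured genes (87.1%) lay within 1.5-fold and 1 (Slc15a3) reached 2-fold. Of the 135 other transporters, 71.9% lay within 1.5-fold, with 5 higher (3.70%) and 9 lower (6.67%) by 2-fold. Over all genes measured, 75.5% lay within 1.5-fold, 5.79% were at least 2-fold higher and 3.05% lower. Because the list was made with the values known, no difference between these sets can be read from it. The adaptor Slc4a1ap was at 288 and 271 (-0.09). Slc9a3r1 and Slc9a3r2, which tether carriers to the cytoskeleton, differed by -0.62 and -0.57, but the 6 probe sets of Slc9a3r2 ran from -0.68 to 0.87.

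Probe sets of 1 gene set a limit on differences of this size. Of the 75 members with more than 1 probe set, 48 had at least 2 above the floor on both arrays, and in 31 of those all had the same sign and in 17 they did not. Of the 15 members past 2-fold, only Slc5a1, Slc39a14 and Slc8a1 could be checked in this way, and in each the probe sets had the same sign. Only in Slc5a1 was the second probe set past 2-fold too.

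**Figure D5:**
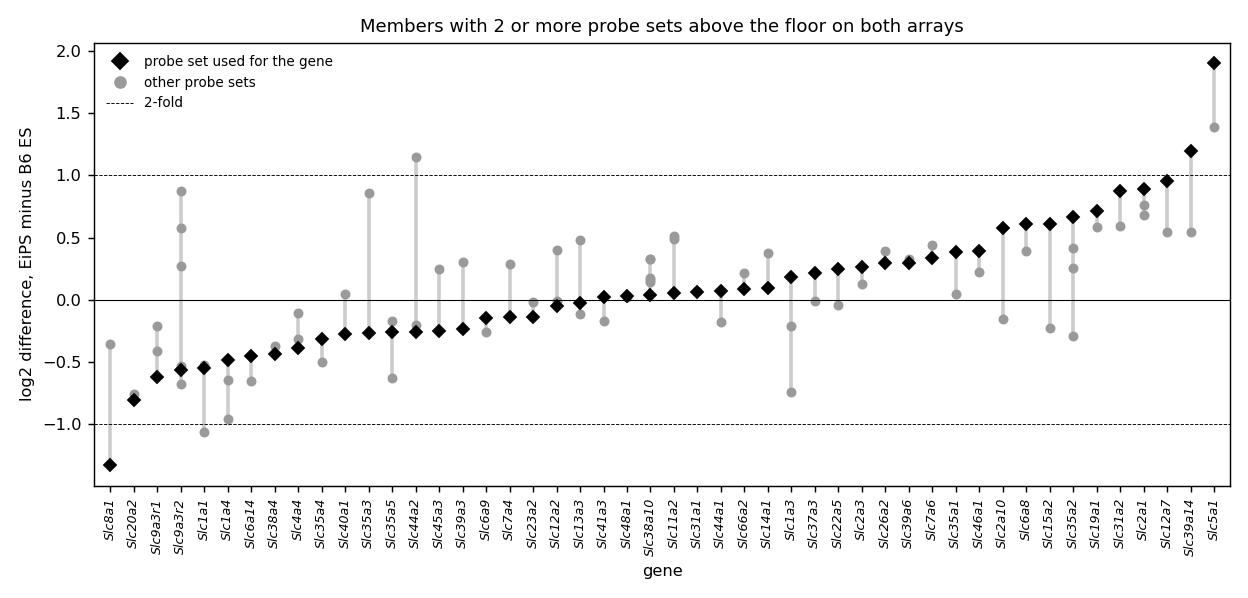
Log2 difference, EiPS tumours minus B6 ES tumours, of every probe set above the floor on both arrays for the 48 members that have at least 2 of them, in order of the probe set used for the gene (diamond), with the others as grey circles. Probe sets had the same sign in 31 members, and their widest ranges were in Slc9a3r2 (-0.68 to 0.87) and Slc44a2 (-0.26 to 1.15).

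Proteins that carry, anchor or regulate these transporters, listed with a few other transport proteins such as Mpc1 and Tfrc, differed little. Of 21 that could be read, 13 were higher and 8 lower by any amount, with a median of 0.06. Only 1 reached 2-fold (4.76%, against 8.84% of all genes in either direction). That was Wnk4, a kinase that sets the activity of the Slc12 cotransporters, at 23.4 and 92.8, at least 3.59-fold higher, while the related Wnk1 (-0.02) and the kinases it acts on, Stk39 (0.00) and Oxsr1 (0.06), lay close to 0. Mpc1, a subunit of the mitochondrial pyruvate carrier, was 1.90-fold lower (3102 and 1633). Pdzk1ip1, a partner of the sodium-glucose cotransporters, was 1.69-fold higher and Txnip, which draws Slc2a1 from the cell surface, 1.63-fold higher (1434 and 2341).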

How the data were processed

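Per the submitters' processing notes, the authors made the deposited intensity values, which are linear probe set signals, with Affymetrix Expression Console and MAS5. No version or setting was given in the sources used here. Detection calls were left aside. Both arrays have a 2% trimmed mean of 500.2, so no scaling was added. MAS5 takes mismatch signal off, so low values are noisy. Probe sets were named from the platform annotation, updated by Entrez identifier through a RefSeq table (GRCm38.p6, 20351 of 20380 single-symbol probe sets). Where a gene had several probe sets, the one brightest on average (mean of log2 signals) was used. Members, substrate groups and gene lists were chosen with earlier results of these data known, and Slc4a1ap was moved to the adaptors after its values were seen. Members named are all those past 2-fold and, in each group, the 3 with the highest mean signal and the largest difference in each direction; other members illustrate a family and were chosen after their values were seen. Marker lists give levels only. No test was possible with 1 array per group. The calculation was tested on simulated data (Python 3.11.15, pandas 2.3.3, statsmodels 0.14.6).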

Additional observations from a re-analysis of the deposited data

How the results depend on the processing

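No paired analysis was possible because each group has 1 array. The 10 alternatives run were 3 other floors (the 75th or 98th percentile of receptor signals, or 100), none at all, log2(signal + 64), 3 rescalings (equal medians, quantile normalization, and a loess fit of span 0.4), averaged probe sets, and leaving out shared probe sets. The count of members at least 2-fold higher moved from 6 to 19 with no floor, to 2 with a floor of 100 and to 2 with log2(signal + 64), and the count of lower members from 9 to 17 with no floor and to 5 with a floor of 100. With no floor, signals near 0 enter the folds. The shares of all genes past 2-fold shifted in the same directions as the member counts. Of all genes, 5.79% were higher in the main setting. That share was 10.1% once the floor was removed, 3.39% at a floor of 100 and 2.24% for log2(signal + 64). The share of all genes that were lower was 3.05% in the main setting. It rose to 5.81% once the floor was removed and fell to 2.71% at a floor of 100. The median over members lay between -0.07 and 0.09. Equal medians moved the median of all genes from 0.07 to -0.06, and that of members to -0.06. Of the 15 members past 2-fold, Slc5a1, Slc24a3 and Slc38a5 passed it under all 10 alternatives, and 13 kept their direction wherever they could be compared. The exceptions were Slc8a1 (0.37) and Slc9a8 (-0.51) with probe sets averaged, where probe sets under the floor enter the mean. With the floor at the 98th percentile (49.2), Slc5a5, Slc6a3, Slc6a20a, Slc12a8 and Slc47a1 were under 2-fold. The phosphate median turned to -0.25 and -0.24 after quantile and loess scaling, and that of the adaptors to 0.08 without shared probe sets. Low signals limit what can be said of the 40 members under the floor on both arrays.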

Other observations

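Other transport proteins of these arrays gave the following values. The mitochondrial Slc25 carriers, which the members leave out, had a median log2 difference of -0.08 over 31 measured genes, with Slc25a45 3.25-fold higher in the EiPS tumours (91.0 and 295) and none at least 2-fold lower. Of 34 measured ABC transporters, pumps that use ATP, 3 were at least 2-fold higher (8.82%) and 1 lower (2.94%), with a median of -0.02. The shares of all genes were 5.79% and 3.05%. Abca4, of photoreceptors, was at least 3.69-fold higher and passed the floor only in the EiPS tumours (22.1 and 95.4). Abcc5 was 2.58-fold higher, the sterol pump subunit Abcg5 2.41-fold higher and Abcb8 2.06-fold lower. Among 7 measured Slco carriers of organic anions, Slco1a5 was at least 3.36-fold higher (24.9 and 86.7) and Slco1c1, the thyroid hormone carrier of brain vessels and glia, 2.24-fold lower (752 and 335). No aquaporin of 6 measured reached 2-fold; Aqp1 came closest at 0.99.

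Ion pumps set up the gradients that drive coupled carriers. For the sodium-potassium ATPase only beta subunits were listed, so its catalytic subunits are not covered here. All 4 beta subunits of the sodium-potassium ATPase and its relatives were lower, with a median of -0.52 that stayed below 0 under each of the 3 rescalings: Atp1b4, a muscle member, was 3.81-fold lower (1496 and 393), Atp1b1 1.69-fold, Atp1b2 1.22-fold and Atp1b3 1.21-fold. Of 19 subunits of the vacuolar proton pump, 13 were lower and 6 higher, none by 2-fold, with a median of -0.30 that also stayed below 0; Atp6v1h was 1.82-fold lower (1653 and 910.5).

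Probe sets shared by several genes were not used for members. That of Slc28a2 and Slc28a2b, nucleoside carriers, had signals of 46.7 and 83.4, that of Slc22a29 and Slc22a30 11.5 and 20.7, and that of Slc9a7 and a neighbouring transcript 284 and 166.

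Levels of the other marker lists, summed over members in the B6 ES and EiPS tumours, were 298 and 2649 for adipocytes, 3886 and 7471 for epidermis, 2712 and 2348 for airway and lung, 177 and 332 for erythroid cells, 73.2 and 129 for melanocytes, 2603 and 2553 for endothelium and 454 and 879 for cartilage. Some sums hide mixed directions. Of 7 airway and lung markers measured, 5 were higher and 2 lower, the lowest being Scgb3a2 (1524 and 278). Of 6 endothelial markers, 4 were higher and 2 lower. Tyr and Tyrp1 of the melanocyte list and Hba-a1 and Epb42 of the erythroid list were under the floor on both arrays.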
